A study of Mus musculus with 16 samples.

Results

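Immediate early transcription factor genes encode regulators of transcription whose mRNAs appear soon after a cell is stimulated, and 9 of them were examined in mouse liver: Fos, Fosb, Jun, Junb, Egr1, Ier2, Myc, Klf6 and Maff. They were taken by symbol from a table of 41079 genes. All 9 passed the filter on low counts, as did 16742 genes in total. Liver RNA came from 16 mice aged 20 to 22 months on the C57BL/6J background, of which 4 were male CRE- controls, 4 were male LKO mice, 4 were female CRE- controls and 4 were female LKO mice. Every mouse carried a floxed Gcgr, the glucagon receptor gene, with loxP sites around exons 6 to 12. LKO mice also carried Albumin-Cre, which acts in hepatocytes, and whether it acted in other liver cells was not tested. CRE- controls lacked Cre, and no group carried Cre without the floxed allele, so Cre itself and loss of the receptor cannot be told apart. Each LKO group was compared with the CRE- group of its sex to ask what receptor loss in old liver did to these genes.

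Immediate early genes are transcribed without new protein synthesis, from promoters on which factors such as SRF and CREB are already present and are switched on by MAP kinase or cAMP signalling. Their products turn on later genes in growth, stress and inflammation, and their own mRNAs are short-lived. In liver they are known for their response to partial hepatectomy, feeding hormones and tissue injury, and macrophages and endothelial cells of the liver can express them as well as hepatocytes.

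The reads assigned to genes numbered 33268424 in the smallest library and 56488920 in the largest. Levels are given as CPM, each count as a share of the TMM-scaled library total in the usual CPM unit, and comparisons between genes are given as CPM per kilobase of exon. The liver label was checked with 9 hepatocyte markers, which summed to 78350, 107757, 115992 and 104887 CPM in male CRE- replicates 1 to 4, 72682, 87734, 101484 and 88190 CPM in male LKO replicates 1 to 4, 128262, 120850, 127225 and 141764 CPM in female CRE- replicates 1 to 4 and 62642, 99840, 99866 and 78478 CPM in female LKO replicates 1 to 4. Alb was the most abundant of them, all 9 were detected in each library, and each female LKO sum lay below each female control sum. The targeted gene, Gcgr, was at 190.4, 193, 127 and 189.6 CPM in male CRE- replicates 1 to 4 and 117, 136, 129.9 and 160.3 CPM in male LKO replicates 1 to 4. In females it was at 162, 208, 201 and 180.0 CPM in CRE- replicates 1 to 4 and 48.8, 132, 119 and 93.6 CPM in LKO replicates 1 to 4. The genotypes did not overlap in females and overlapped in males, where CRE- replicate 3 was the lowest control. Because reads on exons that were not deleted also count towards Gcgr, its level is a weak check of the male labels. On the principal components of log2 CPM over all genes tested, female LKO replicate 1 lay farthest out on the first and male CRE- replicate 3 on the second. The 1 member call lost without this pair, Klf6 in females, is given with and without it.

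Per kilobase of exon, the members ranged from abundant to barely detected. Junb, an AP-1 subunit, had the highest mean level at 25.5 ± 9.84 CPM per kilobase (SD over 16 libraries). It was followed by Ier2 at 14.9 ± 3.18, Egr1 at 12.8 ± 8.54 and Jun at 7.34 ± 3.04 CPM per kilobase. Klf6 at 4.97 ± 3.14, Myc at 3.53 ± 2.54 and Maff at 3.47 ± 2.31 CPM per kilobase stood lower. Fos at 1.16 ± 0.633 and Fosb at 0.106 ± 0.0473 CPM per kilobase were the lowest. Of the neighbours in this order, Fos lay above Fosb in 16 of 16 libraries, while Ier2 lay above Egr1 in 10 of 16 and Myc above Maff in 7 of 16. The SD of the log2 ratio exceeded its mean for Ier2 and Egr1, Egr1 and Jun, Klf6 and Myc, and Myc and Maff. The mean ratio of these neighbours was thus within its spread between libraries. Klf6 still lay above Myc in 14 of 16 libraries and Egr1 above Jun in 12 of 16. Fosb rested on 4 to 30 reads per library, so counting error is part of its spread, against 740 to 3792 for Junb. Ier2 varied least, 2.32-fold between its lowest and highest library, and Maff most, 13.2-fold.

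**Figure D1:**
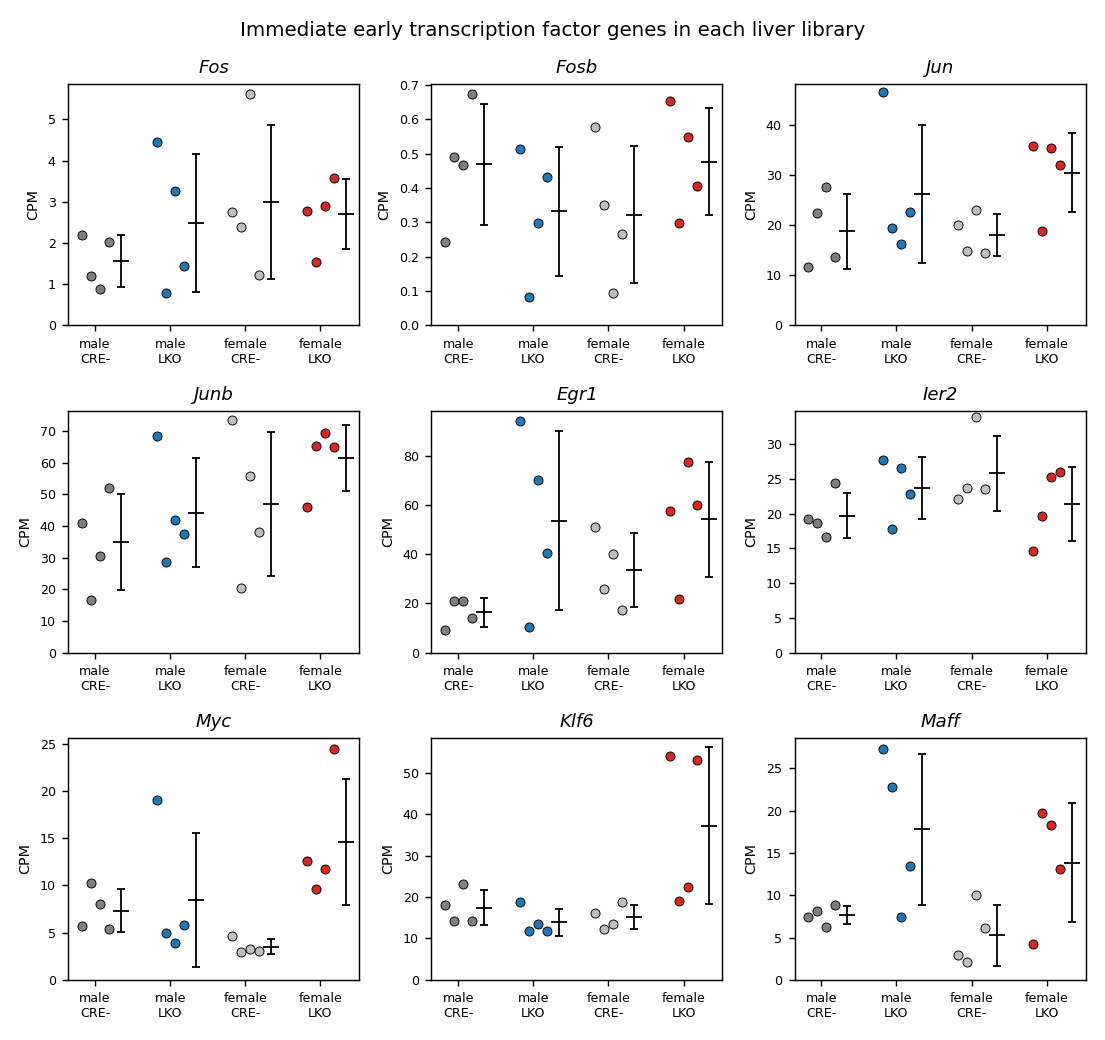
Level of each gene in CPM (vertical axes, linear from 0) in the 4 groups (horizontal axes). Points are mice in the order of their replicate number, and bars are the mean with the SD (n = 4). The female LKO points lie above all female CRE- points for Myc and Klf6, and the groups overlap in both sexes for the other genes.

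In female LKO livers Myc and Klf6 rose, and no member fell. Myc, the growth regulator, averaged 3.49 ± 0.784 CPM (SD, n = 4) in the control group against 14.6 ± 6.70 CPM (SD, n = 4) with LKO. Klf6, a Kruppel-like factor of injured liver, averaged 15.1 ± 2.90 CPM (SD, n = 4) against 37.2 ± 19.01 CPM (SD, n = 4). By the edgeR quasi-likelihood test after Benjamini-Hochberg adjustment, 2 of 9 members were called in females at an adjusted p under 0.05, beside 4.24% of all genes tested. In males 0 of 9 were called, beside 0.454% of all genes. At an unadjusted p under 0.05 there were 4 of 9 in females (Jun, Myc, Klf6 and Maff) beside 21.4% of all genes, and 2 of 9 in males (Egr1 and Maff) beside 9.53%. DESeq2 called 3 of 9 in females (Myc, Klf6 and Maff) beside 10.1% of its genes, and 1 of 9 in males (Egr1) beside 1.7%. The LKO and CRE- libraries did not overlap for 2 of 9 members in females, beside 11.6% of all genes, and for 0 of 9 in males, beside 6.49%. Both female members lay with all LKO libraries above all controls, which held for 5.2% of all genes in females and 3.57% in males. Over the 9 members the log2 fold changes had a median of 0.69 in females and 0.34 in males, beside 0.04 and -0.008 over all genes tested. In bulk liver, a change in the number of cells of a type and a change in RNA per cell cannot be told apart.

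AP-1 is a dimer of a Jun protein with a Fos or another Jun protein. Jun, at chr4:94937273-94940459 (minus strand) on GRCm39 in 1 exon, was at 20.1, 14.8, 23.03 and 14.5 CPM in female CRE- replicates 1 to 4 and 35.7, 18.8, 35.3 and 31.99 CPM in female LKO replicates 1 to 4. Jun lay above every control in 3 of 4 female LKO mice, replicate 2 being the exception. Its female log2 fold change was 0.75 (SE 0.34), with an adjusted p of 0.206 from the edgeR quasi-likelihood test after Benjamini-Hochberg adjustment. In males Jun was at 11.6, 22.5, 27.6 and 13.6 CPM in male CRE- replicates 1 to 4 and 46.5, 19.5, 16.2 and 22.6 CPM in male LKO replicates 1 to 4. Male LKO replicate 1 was the highest library and the other male LKO mice lay within the control range. For males the log2 fold change was 0.48 (SE 0.34) with a 95% interval of -0.23 to 1.19. It was 0.03 without male LKO replicate 1 and 0.71 without the pair that stood apart. Junb, a Jun protein that can also restrain AP-1, lies at chr8:85703538-85705377 (minus strand) and was at 40.8, 16.5, 30.4 and 51.9 CPM in male CRE- replicates 1 to 4 and 68.6, 28.6, 41.9 and 37.5 CPM in male LKO replicates 1 to 4. In females it was at 73.5, 20.4, 55.7 and 38.1 CPM in female CRE- replicates 1 to 4 and 46.02, 65.4, 69.4 and 64.8 CPM in female LKO replicates 1 to 4. The highest Junb library was a control, female CRE- replicate 1, and the groups overlapped in both sexes, although the lowest female LKO mouse lay above CRE- replicates 2 and 4. The Junb log2 fold change was 0.34 (SE 0.37) in males and 0.39 (SE 0.37) in females, with 95% intervals of -0.45 to 1.13 and -0.40 to 1.17. With 1 mouse left out at a time, the male value ranged from 0.02 (without male LKO replicate 1) to 0.60 (without male CRE- replicate 4). The female value ranged from 0.14 (without female CRE- replicate 2) to 0.69 (without female CRE- replicate 1).

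Fos, at chr12:85520664-85524048 (plus strand), encodes the partner of Jun in the classical AP-1 dimer. It was at 2.19, 1.20, 0.884 and 2.02 CPM in male CRE- replicates 1 to 4 and 4.45, 0.791, 3.25 and 1.43 CPM in male LKO replicates 1 to 4. In females it was at 2.75, 2.39, 5.63 and 1.23 CPM in female CRE- replicates 1 to 4 and 2.77, 1.55, 2.89 and 3.59 CPM in female LKO replicates 1 to 4, and the highest library of all was a control, female CRE- replicate 3. The groups overlapped in both sexes. The Fos log2 fold change was 0.65 (SE 0.52) in males and -0.15 (SE 0.52) in females, with 95% intervals of -0.45 to 1.76 and -1.25 to 0.94, so the male interval holds a 2-fold higher level and the female interval a 2-fold lower one. In males it was 0.19 without LKO replicate 1, and it reversed to -0.24 with limma-voom. Without female CRE- replicate 3 the female value was 0.34, and without female LKO replicate 2 it was 0.04. Fosb, its paralogue at chr7:19036621-19043970 (minus strand), was at 0.243, 0.490, 0.468 and 0.674 CPM in male CRE- replicates 1 to 4 and 0.514, 0.0833, 0.298 and 0.432 CPM in male LKO replicates 1 to 4. In females Fosb was at 0.577, 0.350, 0.0958 and 0.267 CPM in female CRE- replicates 1 to 4 and 0.655, 0.299, 0.549 and 0.405 CPM in female LKO replicates 1 to 4. The groups overlapped in both sexes, and the lowest library was male LKO replicate 2. Its log2 fold change was -0.50 (SE 0.59) in males and 0.56 (SE 0.59) in females, with 95% intervals of -1.75 to 0.74 and -0.68 to 1.80, on 4 to 30 reads per library. With 1 mouse left out, the male value ran from -0.81 (without LKO replicate 1) to -0.18 (without LKO replicate 2). In females it ran from 0.26 (without CRE- replicate 3) to 0.99 (without CRE- replicate 1).

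Ier2 encodes a small nuclear protein of the immediate early response and lies at chr8:85387960-85389481 (minus strand). In males it was at 19.2, 18.6, 16.7 and 24.4 CPM in male CRE- replicates 1 to 4 and 27.7, 17.8, 26.5 and 22.9 CPM in male LKO replicates 1 to 4. Male LKO replicates 1 and 3 lay above every male control, and replicates 2 and 4 within the control range. In females it was at 22.1, 23.7, 33.9 and 23.5 CPM in female CRE- replicates 1 to 4 and 14.6, 19.7, 25.2 and 26.03 CPM in female LKO replicates 1 to 4, where LKO replicates 1 and 2 lay below every control and LKO replicates 3 and 4 within the control range. The log2 fold change of Ier2 was 0.27 (SE 0.21) in males and -0.27 (SE 0.21) in females, the latter being -0.10 without the pair of libraries that stood apart. With 1 mouse left out, the male value ran from 0.17 (without LKO replicate 1) to 0.39 (without CRE- replicate 4). With limma-voom the male value was 0.13. The 95% intervals of Ier2 were the narrowest of the 9 genes, -0.18 to 0.71 in males and -0.72 to 0.17 in females.

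Maff encodes a small MAF protein, which has no activation domain of its own and pairs with NRF and BACH factors. It lies at chr15:79230813-79243278 (plus strand). In males Maff was at 7.43, 8.09, 6.24 and 8.79 CPM in male CRE- replicates 1 to 4 and 27.3, 22.9, 7.43 and 13.5 CPM in male LKO replicates 1 to 4. In females it was at 2.88, 2.06, 10.01 and 6.09 CPM in female CRE- replicates 1 to 4 and 4.23, 19.7, 18.4 and 13.1 CPM in female LKO replicates 1 to 4. In each sex 3 of 4 LKO mice lay above every control, with male LKO replicate 3 and female LKO replicate 1 within the control range. The log2 fold change was 1.22 (SE 0.50) in males and 1.40 (SE 0.51) in females, with adjusted p of 0.435 and 0.116 from the edgeR quasi-likelihood test after Benjamini-Hochberg adjustment. DESeq2 gave an adjusted p of 0.0426 in females, the log2 fold change was 1.73 without the pair that stood apart, and the adjusted p ranged over the edgeR, DESeq2 and limma alternatives other than leave-outs from 0.0167 to 0.209. Maff was the only member with an unadjusted p under 0.05 in both sexes.

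Egr1 encodes a zinc finger factor that binds GC-rich DNA and lies at chr18:34994260-34998009 (plus strand). In males it was at 8.99, 21.2, 21.03 and 14 CPM in male CRE- replicates 1 to 4 and 93.97, 10.3, 69.96 and 40.4 CPM in male LKO replicates 1 to 4. Male LKO replicates 1, 3 and 4 lay above every control, and replicate 2 lay within the control range. In females it was at 51.2, 25.7, 40.2 and 17.1 CPM in female CRE- replicates 1 to 4 and 57.5, 21.7, 77.4 and 60.02 CPM in female LKO replicates 1 to 4, with LKO replicates 1, 3 and 4 above every control and replicate 2 within their range. The log2 fold change was 1.72 (SE 0.54) in males and 0.69 (SE 0.52) in females, with adjusted p of 0.242 and 0.488 from the edgeR quasi-likelihood test after Benjamini-Hochberg adjustment. DESeq2 gave an adjusted p of 0.0482 in males at a log2 fold change of 1.71, and the alternatives other than leave-outs ranged from 0.0482 to 0.484.

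Klf6 lies at chr13:5911488-5920392 (plus strand) and is induced in hepatocytes, stellate cells and macrophages of injured liver. It was at 16.1, 12.2, 13.5 and 18.7 CPM in female CRE- replicates 1 to 4 and 54.1, 19.1, 22.6 and 53.2 CPM in female LKO replicates 1 to 4. All 4 female LKO mice lay above all 4 controls, and replicates 1 and 4 stood far above replicates 2 and 3. The female log2 fold change was 1.30 (SE 0.31), with an adjusted p of 0.0326 from the edgeR quasi-likelihood test after Benjamini-Hochberg adjustment. In males Klf6 was at 18.1, 14.1, 23.3 and 14.3 CPM in male CRE- replicates 1 to 4 and 18.7, 11.8, 13.6 and 11.8 CPM in male LKO replicates 1 to 4, with overlapping groups and a log2 fold change of -0.32 (SE 0.31). With 1 mouse left out, the male value ran from -0.51 (without LKO replicate 1) to -0.17 (without CRE- replicate 3). The female call was lost without LKO replicate 1 (adjusted p = 0.0935), without LKO replicate 4 (0.0712), and without CRE- replicates 1 (0.0565), 2 (0.114), 3 (0.0973) or 4 (0.0641), each from edgeR with Benjamini-Hochberg adjustment. It was also lost with each sex fitted alone (edgeR adjusted p = 0.0961), at a log2 fold change of 1.30. Without the pair of libraries that stood apart it was lost as well (edgeR adjusted p = 0.0732), at 1.08. Over all leave-outs of 1 mouse the female log2 fold change stayed between 1.07 and 1.51.

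Myc drives ribosome production and cell growth and lies at chr15:61857190-61862210 (plus strand). It was at 4.66, 2.98, 3.23 and 3.10 CPM in female CRE- replicates 1 to 4 and 12.6, 9.62, 11.7 and 24.5 CPM in female LKO replicates 1 to 4. All 4 female LKO mice lay above all 4 controls, with replicate 4 the highest. The female log2 fold change was 2.06 (SE 0.45), with an adjusted p of 0.0231 from the edgeR quasi-likelihood test after Benjamini-Hochberg adjustment. In males it was at 5.66, 10.2, 8.01 and 5.39 CPM in male CRE- replicates 1 to 4 and 19.01, 4.96, 3.93 and 5.83 CPM in male LKO replicates 1 to 4. Male LKO replicate 1 was far above the other male LKO mice, of which replicates 2 and 3 were below every control. With all mice the log2 fold change in males was 0.20 (SE 0.43), and it was -0.59 without that mouse and -0.20 with limma-voom. The female call was lost without CRE- replicates 2 (edgeR adjusted p = 0.0846), 3 (0.0748) or 4 (0.0679) and without LKO replicate 4 (0.0521), while the log2 fold change stayed between 1.69 and 2.23 over all leave-outs.

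**Figure D2:**
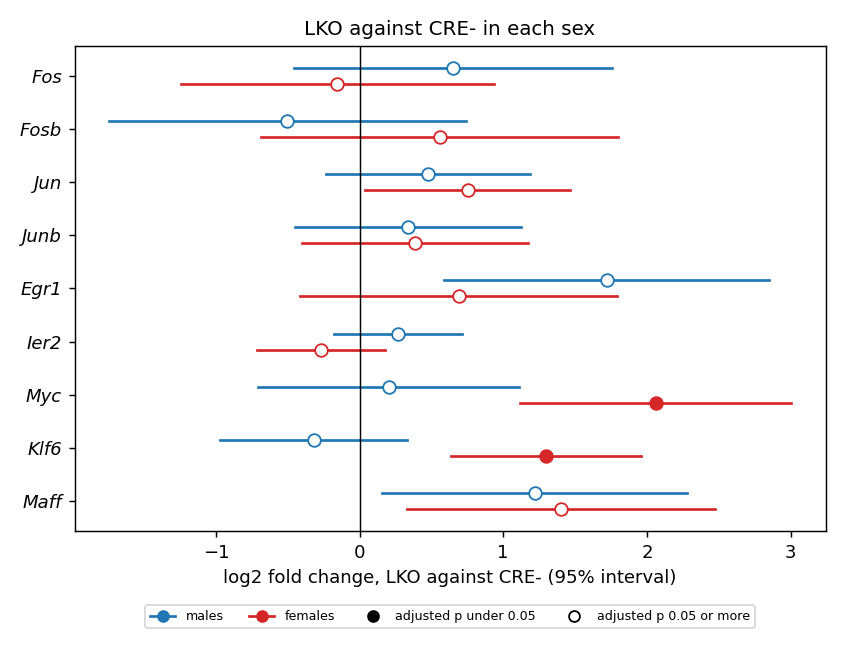
Log2 fold change of LKO against CRE- mice (horizontal axis) for each gene (vertical axis), in males (blue) and females (red), from edgeR with 4 mice per group. Lines are 95% intervals, and filled points have an adjusted p under 0.05, which holds for Myc (2.06) and Klf6 (1.30) in females.

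The difference between the sexes was tested as an interaction, female minus male. With the edgeR quasi-likelihood test after Benjamini-Hochberg adjustment, 0 of 9 members were called, beside 0% of all genes tested. At an unadjusted p under 0.05 there were 2 of 9 (Myc and Klf6), beside 16% of all genes. DESeq2 called 1 of 9 (Klf6), beside 2.19% of its genes. The log2 difference was 1.62 (SE 0.44) for Klf6, with an edgeR adjusted p of 0.173 and a DESeq2 adjusted p of 0.0288, within 0.0288 to 0.332 over the alternatives other than leave-outs. Without the pair that stood apart it was 1.24. For Myc it was 1.86 (SE 0.61), with an edgeR adjusted p of 0.213, and without male LKO replicate 1 it was 2.66 with an edgeR adjusted p of 0.0450. A call in females and none in males is therefore not shown to be a sex difference for Myc or Klf6 by the joint edgeR fit. Maff had a difference of 0.18 (SE 0.70) with a 95% interval of -1.30 to 1.66, which holds a 2-fold difference in each direction. It was 1.02 with limma-voom, 0.61 without the pair that stood apart and 0.70 without female CRE- replicate 3. It turned negative without male LKO replicate 3 (-0.078), female CRE- replicate 1 (-0.025) or 2 (-0.090), or female LKO replicate 2 (-0.040).

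Across the 16 libraries the members did not move as one. Of 36 pairs, 8 had a Pearson r of log2 CPM above 0.5 and 6 had an r below 0. These values describe libraries that share 4 groups and a depth each, and carry no p. By Pearson r, Jun and Myc were the closest pair (Pearson r = 0.76 and Spearman rho = 0.69), followed by Jun and Egr1 (Pearson r = 0.72 and Spearman rho = 0.70). Myc and Klf6 had a Pearson r = 0.70 and Spearman rho = 0.66. Fos went with Egr1 (Pearson r = 0.69 and Spearman rho = 0.74) and with Ier2 (Pearson r = 0.67 and Spearman rho = 0.74), the 2 highest pairs by Spearman rho. After subtraction of the group means the Pearson r was 0.78 for Jun and Myc, 0.69 for Fos and Ier2, and 0.52 for Myc and Klf6. Male LKO replicate 1 and female LKO replicate 3 each held 7 of the 9 genes among their 4 highest libraries, and female LKO replicate 4 held 6. Male LKO replicate 2 and female CRE- replicate 4 each held 6 of the 9 among the 4 lowest.

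The 3 genes most like each member were taken by Pearson r of log2 CPM over the 16 libraries, as a description with no p. Klf6 was closest to Thbs1 (0.94), Nedd9 (0.93) and Pkm (0.92), where Thbs1 encodes thrombospondin and Pkm a pyruvate kinase. Myc was closest to Rbm3 (0.92), Ager (0.90) and Map3k6 (0.90), where Rbm3 encodes a cold-inducible RNA-binding protein. Maff was closest to Slc19a1 (0.92), Tnfrsf19 (0.90) and Snhg15 (0.87), where Slc19a1 encodes a folate carrier. Ier2 was closest to Zfp36 (0.87), A330040F15Rik (0.84) and 2700038G22Rik (0.84), where Zfp36 encodes an mRNA decay factor of the same early response. Junb was closest to Klrb1b (0.82), Cd37 (0.79) and Gpr18 (0.79), where Cd37 is a leukocyte surface protein. Jun was closest to Thumpd3 (0.85), Cmtr2 (0.80) and Myo1c (0.77). Egr1 was closest to Gm54029 (0.78), 1700082M22Rik (0.78) and Xlr (0.78), Fos to Crispld2 (0.78), Mir7652 (0.78) and Zup1 (0.76), and Fosb to Tnfrsf8 (0.83), Dok4 (0.79) and Zdhhc8 (0.77).

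Genes related to the members, and cell type markers, were counted by list, with edgeR calls at an adjusted p under 0.05. Over all other lists, cell type markers included, 27 of 237 genes tested were called in females (11.4%, beside 4.24% of all genes) and 4 in males (1.69%, beside 0.454%). These 27 include macrophage, neutrophil, endothelial and proliferation markers and Gcgr, the targeted gene. The lists were chosen with earlier results of these data known, so a share above that of all genes is no test of them. The female count was 54 by DESeq2 and 58 by limma-voom, and the male count 9 by DESeq2. Over all genes DESeq2 called 10.1% in females and 1.7% in males, and limma-voom called 1976 genes in females against 710 by edgeR. The count for females was 5 with each sex fitted alone, 10 without the pair that stood apart, and 12, 1, 1 and 3 without female CRE- replicates 1 to 4 in turn. Of the 27, 8 kept their call without that pair (Fosl2, Ier3, Dusp4, Plaur, Sik1, Gcgr, Retnlg and Cdh5). The female count was 5, 44 and 14 without female LKO replicates 1, 2 and 4, and the male count was 2 without male CRE- replicates 1, 2 or 3 or male LKO replicates 2, 3 or 4. Of the other AP-1 and ATF genes, 10 of 11 were tested, with 0 called in males (1 lower at an unadjusted p under 0.05 and 0 by DESeq2). In females 2 rose and 0 fell by edgeR, with 4 higher at an unadjusted p under 0.05 and 3 higher by DESeq2. Fosl2, a Fos relative, went from 9.47 ± 2.58 CPM to 22.2 ± 7.76 CPM (SD, n = 4), which on the log2 scale was a change of 1.23 (SE 0.25, edgeR adjusted p = 0.0194). Jdp2, a dimer partner that represses AP-1 sites, had a log2 fold change of 1.35 (SE 0.37), and 0.84 (edgeR adjusted p = 0.145) without that pair. Over this list the log2 fold change had a median of 0.89 in females and 0.07 in males. Of the EGR and NR4A relatives 7 of 8 were tested and 0 were called by edgeR, with 2 higher at an unadjusted p under 0.05 and 1 higher by DESeq2 in females and 0 at an unadjusted p under 0.05 and 0 by DESeq2 in males. Nr4a2, the one with the smallest female p, was at 0.710, 0.311, 0.192 and 0.267 CPM in female CRE- replicates 1 to 4 and 0.705, 3.59, 1.06 and 0.174 CPM in female LKO replicates 1 to 4. Its log2 fold change was 1.89 (SE 0.68), with LKO replicate 2 far above the rest and LKO replicates 1 and 4 not above every control. Of 12 other KLF genes 11 were tested and 0 were called by edgeR, with 1 higher at an unadjusted p under 0.05 and 0 by DESeq2 in females and 0 at an unadjusted p under 0.05 and 0 by DESeq2 in males, Klf4 having a female log2 fold change of 0.78 (SE 0.37). Of 8 other MAF genes, 0 were called by edgeR in females (2 higher at an unadjusted p under 0.05 and 1 higher by DESeq2).

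Of 21 further immediate early genes, 2 rose in females and 1 fell in males. At an unadjusted p under 0.05 there were 6 higher and 2 lower in females and 3 higher and 3 lower in males. DESeq2 called 3 higher and 1 lower in females and 1 higher and 1 lower in males. Ier3, a survival factor, had a female log2 fold change of 2.27 (SE 0.52), and Ccn2, a matricellular growth factor, had 1.77 (SE 0.46), or 1.5 (edgeR adjusted p = 0.0872) without the pair that stood apart. Errfi1, an inhibitor of the EGF receptor, went from 696 ± 227 CPM to 202 ± 50.3 CPM (SD, n = 4) in males, which on the log2 scale was a change of -1.78 (SE 0.34). Among 15 feedback genes that shut the response off, the MAP kinase phosphatases Dusp4 and Dusp8 rose in females, with log2 fold changes of 1.37 (SE 0.25) and 2.18 (SE 0.53). Dusp8 was at 1.75 (edgeR adjusted p = 0.0735) without that pair. In males 0 of the 15 were called by edgeR, with 1 higher at an unadjusted p under 0.05 and 1 higher by DESeq2. Of 15 upstream MAPK and SRF genes 0 were called by edgeR, with 2 higher, 1 lower at an unadjusted p under 0.05 and 1 higher by DESeq2 in females and 0 at an unadjusted p under 0.05 and 0 by DESeq2 in males. Mrtfa, an SRF coactivator, had a female log2 fold change of 0.81 (SE 0.26).

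Of 12 MYC network genes, 2 rose in females and 0 were called by edgeR in males (0 at an unadjusted p under 0.05 and 0 by DESeq2). Mlxip and Mnt, which bind MLX or MAX, had female log2 fold changes of 1.03 (SE 0.26) and 0.72 (SE 0.19), and without the pair that stood apart 0.68 (edgeR adjusted p = 0.0840) and 0.75 (edgeR adjusted p = 0.0792). Of 20 MYC target genes, 1 rose in females, beside 4.24% of all genes. It was Hk2, which encodes a hexokinase, with a log2 fold change of 2.24 (SE 0.54). Without the pair of libraries that stood apart it was 1.11 (edgeR adjusted p = 0.0603). In females 5 of the 20 were higher at an unadjusted p under 0.05 and 1 higher by DESeq2. In males 0 of the 20 were called by edgeR (4 higher, 1 lower at an unadjusted p under 0.05 and 0 by DESeq2). Of the 20, 17 in females and 13 in males had a log2 fold change above 0, beside 53.1% and 49.1% of all genes. Over the MYC targets the log2 fold change had a median of 0.26 for females and 0.24 for males. Of 15 AP-1 target genes, 14 were tested and 2 rose in females, Plau and its receptor Plaur of the urokinase system, with log2 fold changes of 2.16 (SE 0.55) and 2.05 (SE 0.43). Without that pair Plau was at 1.16 (edgeR adjusted p = 0.111) and Plaur at 2.05 (edgeR adjusted p = 0.0297). In females 6 of the 14 were higher at an unadjusted p under 0.05 and 5 higher by DESeq2. In males 0 of the 14 were called by edgeR (1 higher at an unadjusted p under 0.05 and 0 by DESeq2). Of the 14, 13 in females and 6 in males had a log2 fold change above 0. Over the AP-1 targets the log2 fold change had a median of 0.79 for females and -0.11 for males. Among 13 CREB and glucagon-stimulated genes, Sik1 rose and Gcgr fell in females. Sik1, a kinase that cAMP induces, was at 18.5, 19.04, 15.3 and 16.3 CPM in female CRE- replicates 1 to 4 and 48.7, 58.6, 25.2 and 191 CPM in female LKO replicates 1 to 4. In males Pde4b, a cAMP phosphodiesterase, fell from 21.1 ± 2.15 CPM to 5.12 ± 0.252 CPM (SD, n = 4), which on the log2 scale was a change of -2.04 (SE 0.28). Of the 13 genes in males there were 4 lower at an unadjusted p under 0.05 and 1 lower by DESeq2, 1 had a log2 fold change above 0, and the median was -0.47. In females there was 1 higher and 1 lower, both at an unadjusted p under 0.05 and by DESeq2. Of the 13 in females, 8 had a log2 fold change above 0, and the median was 0.13. Of 11 heat shock and handling genes, Hspb1 rose in males with a log2 fold change of 1.03 (SE 0.20), and Bag3 fell in females with -0.96 (SE 0.23), or -0.86 (edgeR adjusted p = 0.0557) without the pair. In males 2 of the 11 were higher at an unadjusted p under 0.05 and 1 higher by DESeq2, 9 had a log2 fold change above 0, and the median was 0.23. In females 3 were lower at an unadjusted p under 0.05 and 2 lower by DESeq2, 2 had a log2 fold change above 0, and the median was -0.38.

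Some markers of other cell types rose in female LKO mice as well. The 12 macrophage markers summed to 999, 719, 801 and 1470 CPM in female CRE- replicates 1 to 4 and 4344, 1311, 2861 and 1798 CPM in female LKO replicates 1 to 4, with 3 of 12 called higher by edgeR (Trem2, Itgam and Adgre1) and Cd5l the most abundant. Of the 12 there were 11 higher at an unadjusted p under 0.05 and 9 higher by DESeq2, 12 had a log2 fold change above 0, and the median was 1.46. The 10 neutrophil markers summed to 41.9, 24.3, 18.9 and 55.9 CPM in female controls and 137, 50.5, 87.2 and 645 CPM in female LKO mice, in the same order. Of these, 9 were tested and 3 were called higher by edgeR (Mmp8, Retnlg and Ngp), with 8 higher at an unadjusted p under 0.05 and 8 higher by DESeq2. Their log2 fold changes had a median of 3.17, and S100a9 was the most abundant. Ly6g was at 0 reads in female CRE- replicates 1, 3 and 4 and was detected in all 4 female LKO mice. Female LKO replicate 1, the highest for Klf6, had the highest macrophage sum, and replicate 4, the highest for Myc and level with replicate 1 for Klf6, had the highest neutrophil sum. The order was not shared throughout. Female LKO replicate 3 had a macrophage sum of 2861 CPM with Klf6 at 22.6 CPM, and replicate 4 had 1798 CPM with Klf6 at 53.2 CPM. The 8 proliferation markers summed to 42.6, 45.1, 39.6 and 58.5 CPM in female controls and 146, 54.6, 79.3 and 77.8 CPM in female LKO mice, with 5 of 8 called higher (Birc5, Ccnb1, Cdk1, Top2a and Mcm2), 7 higher at an unadjusted p under 0.05 and 7 higher by DESeq2, and Pcna the most abundant. The 9 endothelial markers summed to 224, 285, 281 and 278 CPM in female controls and 411, 288, 267 and 347 CPM in female LKO mice, with 2 of 9 called higher (Cdh5 and Vwf), 4 higher, 1 lower at an unadjusted p under 0.05 and 3 higher by DESeq2, and Stab2 the most abundant. Of the 9, 6 had a log2 fold change above 0. Without the pair that stood apart, Retnlg and Cdh5 kept their edgeR call among the called macrophage, neutrophil, proliferation and endothelial markers. Adgre1 then had a log2 fold change of 1.21 against 2.15 with all mice, and Mcm2 0.80 against 1.40. The call was lost at a similar log2 fold change for Mmp8 at 3.40 (edgeR adjusted p = 0.0540), Ngp at 4.93 (edgeR adjusted p = 0.0549), Cdk1 at 1.65 (edgeR adjusted p = 0.0549) and Vwf at 1.04 (edgeR adjusted p = 0.0560), against 3.50, 4.68, 1.72 and 1.15 with all mice. The part of these cell types in the Myc and Klf6 results was not tested.

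In males the macrophage markers summed to 1209, 592, 330.1 and 1783 CPM in CRE- replicates 1 to 4 and 1572, 831, 914 and 812 CPM in LKO replicates 1 to 4. Male LKO replicate 1, the highest male library for Egr1, Jun, Myc and Maff, was also the highest male LKO library for this sum. Among all males the highest sum was that of CRE- replicate 4, with Egr1, Jun, Myc and Maff at 14, 13.6, 5.39 and 8.79 CPM. The neutrophil markers summed to 99.3, 24.1, 19.6 and 194 CPM in male controls and 30.9, 19.3, 16.2 and 14.9 CPM in male LKO mice, and S100a9 was the most abundant. Ly6g was at 0 reads in male CRE- replicates 2 and 3 and in all 4 male LKO mice, and Camp in male LKO replicate 4. Of the 9 tested, 0 had a male log2 fold change above 0, and the median was -2.23. The part of these cells in the male results was not tested. In males 0 markers were called by edgeR for macrophages (0 at an unadjusted p under 0.05 and 0 by DESeq2), neutrophils (7 lower at an unadjusted p under 0.05 and 3 lower by DESeq2), endothelium (1 lower at an unadjusted p under 0.05 and 0 by DESeq2) and proliferation (1 higher at an unadjusted p under 0.05 and 0 by DESeq2). The 10 T and NK cell, 8 B and plasma cell, 9 stellate and fibroblast and 7 cholangiocyte markers also had 0 calls by edgeR. At an unadjusted p under 0.05 there were, in that order, 1, 1, 0 and 0 in females and 0, 0, 1 and 0 in males, those in females higher and that in males lower, and DESeq2 called 0 of each in both sexes. The smallest female p in each belonged to Gzma (log2 fold change 1.80, SE 0.69), Cd79b (0.85, SE 0.39), Col1a1 (0.96, SE 0.46) and Spp1 (0.50, SE 0.33). Of the hepatocyte markers 0 of 9 were called by edgeR, with 2 lower at an unadjusted p under 0.05 and 1 lower by DESeq2 in females and 1 lower at an unadjusted p under 0.05 and 0 by DESeq2 in males, Alb having a female log2 fold change of -0.69 (SE 0.24).

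**Figure D3:**
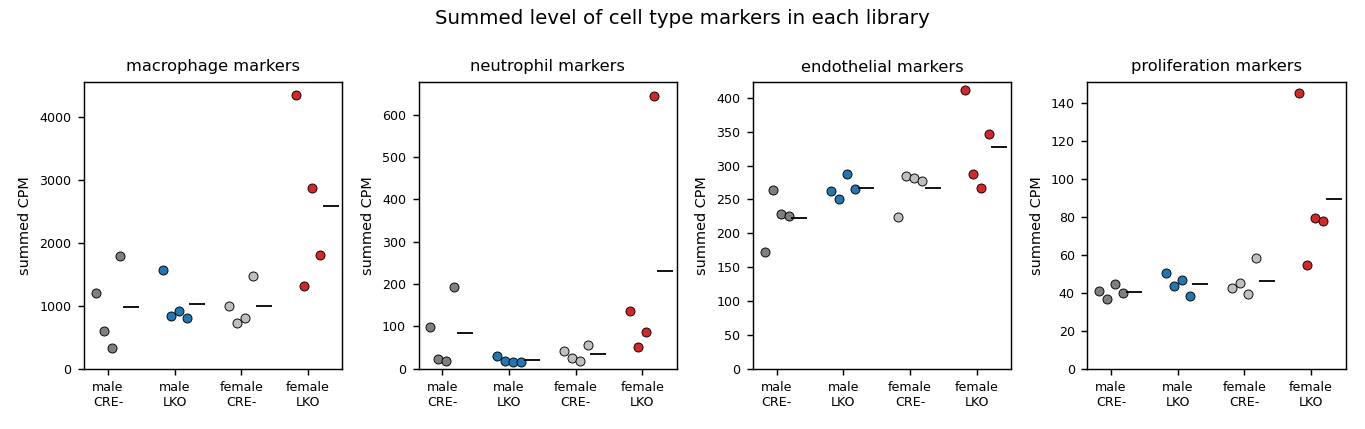
Summed CPM of the macrophage, neutrophil, endothelial and proliferation markers (vertical axes, linear from 0) in the 4 groups (horizontal axes). Points are mice in the order of their replicate number and the short line is the mean of 4. Female LKO replicate 1 has the highest macrophage sum (4344 CPM) and female LKO replicate 4 the highest neutrophil sum (645 CPM).

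The sequence before the transcription start was set side by side for the members that have a promoter window. RefSeq promoter windows, each 250 bases before to 50 after a start, were given for 6 of the 9 members (Fos, Fosb, Jun, Junb, Klf6 and Maff, the last with 3 starts), from a table of build GRCm38.p6. Each of the 8 windows matched GRCm39 at 1 place, whose coordinates are used here. Both strands were searched for the cAMP response element TGACGTCA and its short form TGACG, which lies within it, the AP-1 site TGANTCA, the CArG box of SRF, the E-box CACGTG, the EGR site GCGGGGGCG and the TATA box TATAAA. Of 32851 windows in the table, 1.79% held TGACGTCA, 20.8% TGACG, 7.81% TGANTCA, 1.63% a CArG box, 7.15% CACGTG, 2.91% GCGGGGGCG and 13.6% TATAAA. TGACGTCA was in 1 of 8 windows, the second of Maff, and TGACG was in 5 of 8, of Fos, Fosb, Junb and, for 2 of its windows, Maff. CACGTG was in the Klf6 window and the second Maff window, and GCGGGGGCG was in the Fosb window. TATAAA was before the start in the Fos window and from the start onward in the Junb window. TGANTCA and the CArG box were in none of the 8. Sequence farther than 250 bases before a start was not searched, so a motif absent from a window may lie outside it. Egr1, Ier2 and Myc had no window. The 250 bases before the start are shown for Klf6, which was called in females, for Maff, which holds the full cAMP response element, and for Fos, which holds the short form at 2 places and a TATA box. Capitals mark the motifs, and a match describes letters, not a bound site.
Klf6, chr13:5911238-5911487, plus strand: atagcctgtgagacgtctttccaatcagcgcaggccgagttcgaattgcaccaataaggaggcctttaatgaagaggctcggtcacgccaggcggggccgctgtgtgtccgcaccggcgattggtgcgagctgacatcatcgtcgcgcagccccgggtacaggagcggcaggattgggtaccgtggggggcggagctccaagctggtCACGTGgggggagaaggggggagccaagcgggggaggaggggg
Maff, chr15:79231470-79231719, plus strand: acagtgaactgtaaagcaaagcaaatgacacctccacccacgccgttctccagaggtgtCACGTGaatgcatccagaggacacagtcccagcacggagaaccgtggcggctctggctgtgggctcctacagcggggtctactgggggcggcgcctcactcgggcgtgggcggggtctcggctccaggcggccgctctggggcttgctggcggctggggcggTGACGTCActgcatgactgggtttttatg
Fos, chr12:85520414-85520663, plus strand: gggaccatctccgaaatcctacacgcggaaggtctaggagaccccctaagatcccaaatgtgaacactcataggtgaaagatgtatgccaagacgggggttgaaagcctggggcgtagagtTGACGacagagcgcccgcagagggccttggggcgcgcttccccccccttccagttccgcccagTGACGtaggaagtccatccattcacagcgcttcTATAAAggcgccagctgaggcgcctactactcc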

How the data were processed

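Liver poly-A RNA of 16 mice was sequenced as paired reads. By the submitters' processing notes, alignment was to GRCm39 with STAR 2.7.1a. The authors deposited a raw count per gene and library from featureCounts of Subread 2.0.6, run with the strand option. Mates were counted one by one: of the counts from 20 to under 1000, 66.8% were even, so counts overstate the number of fragments. No other gene's exons overlapped a member's exons on the same strand.

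The counts were filtered with filterByExpr (minimum count 10), scaled by TMM and fitted together in 4 groups with edgeR 4.0.16 (R 4.3.3). Its quasi-likelihood test was adjusted by Benjamini-Hochberg over all 16742 genes tested with a threshold of 0.05. The standard error is the log2 fold change divided by the root of the F statistic. log2 CPM used a prior count of 2. The alternatives were DESeq2 1.42.0, each sex fitted alone, RLE normalization, a replicate block, no filter, a filter of 10 counts or more in every library, limma-voom (limma 3.58.1) with sample quality weights, leaving out each mouse in turn, and, chosen after seeing the data, leaving out both libraries that stood apart. The edgeR, DESeq2 and limma fits were tested on simulated data.

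The members and gene lists were chosen with earlier results of these data known. The genes named are the 9 members, up to 4 called genes per list and sex in order of p or else the gene with the smallest female p, Gcgr, and the 3 genes most like each member. Mcm2 and the most abundant and undetected markers, outside that rule, were named after their values were seen. The result of 1 called list gene is not reported here. Totals were 33268424 to 56488920 reads per mouse, and 13000 genes had at least 10 counts in every library.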

Additional observations from a re-analysis of the deposited data

Results flagged for a closer look

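In 7 of 76 groups of 4 mice, 1 mouse lay far from the others for a member, Gcgr or a summed marker list. The nominal rate by chance is 1 in 20. That rate was not checked on these values and the groups share mice, so no excess over chance is shown. Myc in male LKO replicate 1 was at 19.01 CPM, with the next highest male LKO mouse at 5.83 CPM. The summed macrophage markers of the same mouse were at 1572 CPM, with the next at 914 CPM. Myc in female CRE- replicate 1 was at 4.66 CPM, with the next control at 3.23 CPM. Ier2 in female CRE- replicate 3 was at 33.9 CPM, with the next control at 23.7 CPM, and this mouse also had the highest Fos. Gcgr in male CRE- replicate 3 was at 127 CPM, below the next lowest control at 189.6 CPM. The summed neutrophil markers of female LKO replicate 4 were at 645 CPM, with the next female LKO mouse at 137 CPM. The summed endothelial markers of female CRE- replicate 1 were at 224 CPM, below the next lowest control at 278 CPM. The causes were not tested.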

How the results depend on the processing

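Of 204 member log2 fold changes under the alternatives other than leave-outs, 194 kept their direction and their side of the threshold, as did 410 of 432 with 1 mouse left out. DESeq2 called 1 member in males (Egr1, log2 fold change 1.71), 3 in females (Maff at 1.42 added) and 1 in the interaction (Klf6, 1.64), with 335, 1795 and 369 genes called against 76, 710 and 0, and 9 and 54 genes of the other lists against 4 in males and 27 in females. With each sex alone, 1 member (Myc), 119 genes and 5 list genes were called in females, and Klf6 was at 1.30. limma-voom called 148, 1976 and 29 genes and 58 list genes in females, called Maff in females at 2.07, and reversed Fos (-0.24) and Myc (-0.20) in males. No filter gave 12 interaction calls. With at least 10 counts in every library Fosb was not tested. Without both libraries that stood apart, 1 member (Myc), 361 genes and 10 list genes were called in females, Klf6 was at 1.08 and the Jun interaction at -0.021. Leaving out each mouse, with fewer samples, gave 0 members called in males, 0 to 2 in females and 0 to 1 in the interaction, 26 to 111, 87 to 1310 and 0 to 14 genes, and 2 to 5 and 1 to 44 list genes. The log2 fold change then ranged in males from -0.59 to 0.44 for Myc, in females from -0.39 to 0.34 for Fos, 1.69 to 2.23 for Myc and 1.07 to 1.51 for Klf6, and in the interaction from -0.21 to 0.37 for Junb, -0.090 to 0.70 for Maff and 1.5 to 2.66 for Myc. Apart from the effect of fewer samples, the cause was not tested.

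The replicate block called 1244 genes and 42 list genes in females against 710 and 27, reversed Myc in males to -0.028, and changed no call of a member. Control and LKO mice numbered 1 to 4 had residual correlations of 0.17, 0.17, 0.14 and -0.013 in males and 0.17, 0.10, 0.12 and 0.03 in females. Of these 8, 6 were over 0.1 and 4 controls correlated best with their own number. Replicate 4 was not over 0.1 in either sex. The number in the library name differs from the replicate number in 3 libraries. It gives 6 pairs, of which 5 were over 0.1, and 4 of the 6 controls correlated best with their own library number. The pair not over 0.1, female CRE- replicate 4 with LKO replicate 3, was at -0.018. Neither number met 0.1 in every pair, and the numbers were not used as pairs elsewhere. Whether they mark shared conditions is not known. Levels per kilobase and in CPM order Jun, Egr1, Ier2, Myc and Maff differently. Fosb rested on the fewest reads, 4 to 30 per library.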
